A study of Mus musculus with 4 samples.

Results

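The erythroid miRNAs mmu-miR-451, mmu-miR-144 and mmu-miR-486 (miR-451, miR-144 and miR-486 from here on) were followed in mouse liver over genotype and time of day. They were taken by name from the array annotation and are 3 of the 611 mouse miRNAs that the array measures. Liver miRNA was profiled in WT mice and in *Clock* mutant mice that carry the ClockΔ19 allele, at zeitgeber time (ZT) 2 and ZT14, which are 2 h and 14 h after lights on. There was 1 Agilent 1-colour array for each of the 4 conditions, hybridized with RNA pooled from 3 livers, so no condition had a replicate. Each genotype was thus represented by 1 pool from the light phase and 1 from the dark phase. All mice were male, 6 to 8 weeks old at the start, individually caged, fed freely under 12 h light and 12 h dark for 2 weeks and given no drug. The strain of the WT mice and the zygosity of the mutants are not given in the sources used here.

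miR-144 and miR-451 are cut from neighbouring hairpins of 1 transcript that is switched on by erythroid transcription factors, and both accumulate as red blood cell precursors mature. miR-451 is unusual in that its precursor bypasses Dicer and is sliced by Ago2, the Argonaute protein with cutting activity. miR-486 lies in the ankyrin gene *Ank1*, which codes for a red cell membrane skeleton protein, and is made in erythroid cells and in striated muscle. In whole liver these miRNAs are commonly read as a sign of blood in the tissue, and miR-451 set against miR-23a, a miRNA that red cells hold little of, is a common gauge of haemolysis in serum. Fewer cells of a type and less RNA per cell cannot be told apart in pooled tissue.

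The mature sequences that the array names correspond to are shown because they define what the probes detect, with the seed (bases 2 to 8, the part that pairs with targets) in capitals. They are from RefSeq on GRCm38.p6, both on the plus strand, miR-451 (miR-451a in RefSeq) at chr11:78073186-78073207 and miR-144 (the 3p arm) at chr11:78073047-78073066.
miR-451: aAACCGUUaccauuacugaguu
miR-144: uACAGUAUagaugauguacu
The seeds differ, and neither is found in any of the other mature miRNAs among the 1679 of the table. The table held sequences for 2 of the 3 members, and miR-486 is given by name only.

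The hairpins are shown because they place both miRNAs in 1 locus and because the mature miR-451 runs into the loop, with the mature strand in capitals. Mir144 is at chr11:78073005-78073070 and Mir451a at chr11:78073170-78073241, with 99 bases between them.
Mir144: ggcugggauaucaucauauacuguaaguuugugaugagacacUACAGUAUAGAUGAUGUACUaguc
Mir451a: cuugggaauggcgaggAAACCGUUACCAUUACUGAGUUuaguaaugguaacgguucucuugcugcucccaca
In the minimum free energy fold, miR-451 took up positions 17 to 38 of its 72-base hairpin, had 17 of its 22 bases paired and covered the whole 4-base terminal loop. miR-144 took up positions 43 to 62 of its 66-base hairpin, had 19 of 20 bases paired and had 0 bases in the loop. Mir486 lies within the annotated span of *Ank1* on chromosome 8, apart from the other two.

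Each miRNA had 20 spots on an array, split over a pair of probes. The signal of a miRNA is the mean background-subtracted intensity of its spots without outlier flags, averaged over its probes. The arrays lay on 1 slide and were scanned together, and 193, 161, 138 and 142 mouse miRNAs were detected on the WT ZT2, mutant ZT2, WT ZT14 and mutant ZT14 arrays. Scaled signals are multiples of an array's 75th percentile, taken over 123 miRNAs that every array detected. It was 537, 503, 339.9 and 536 units in that order, lowest for WT at ZT14. No spot was saturated.

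miR-451 was detected on all 4 arrays, with all 20 spots well above background on each. Its signal before scaling was 1724 units for WT and 2901 for the mutant at ZT2, 979 in WT at ZT14 and 1336 in the mutant at ZT14. After scaling it was 3.21, 5.76, 2.88 and 2.49 in the same order. The mutant pool at ZT2 was the highest on both scales. The lowest was the mutant at ZT14 after scaling and WT at ZT14 before it, so the order of the ZT14 arrays turned with the scaling. The spot SD was 0.037, 0.045, 0.051 and 0.026 on the log2 scale. It is a technical error within 1 array and does not cover the spread between mice.

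miR-144, the other product of the locus, was also detected on all 4 arrays but much nearer to background at ZT14. Its unscaled signal was 60.1 units in WT at ZT2, 73.1 in the mutant at ZT2, 20.4 in WT at ZT14 and 28.6 in the mutant at ZT14, while negative control spots averaged 5.48, 5.24, 8.32 and 9.72 units. The spots well above background numbered 20, 20, 4 and 14 of 20. After scaling the signal was 0.112, 0.145, 0.0599 and 0.0533. Both ZT2 arrays were above both ZT14 arrays, and the mutant at ZT2 was again the highest. The spot SD was 0.10, 0.091, 0.24 and 0.17 on the log2 scale.

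miR-486 was at the edge of detection. Its unscaled signal was 9.14 units in WT at ZT2, 14.8 in the mutant at ZT2, 6.58 in WT at ZT14 and 6.77 in the mutant at ZT14. The scanner software called it detected on the mutant array at ZT2 alone, where 0 of its 20 spots were well above background. A single spot was well above background on the WT array at ZT14. It was marked as an outlier and left out, and with the outlier spots of that array kept the signal would be 17.2 units. The level of miR-486 outside the mutant ZT2 pool is therefore known only as not detected.

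**Figure D1:**
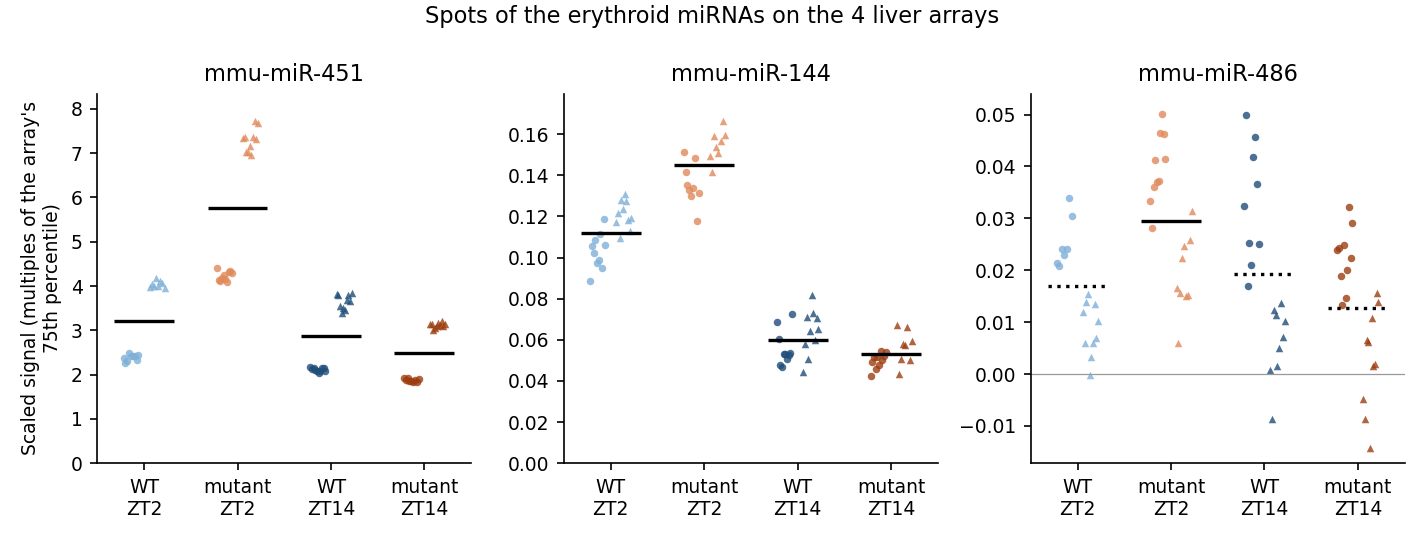
Scaled signal (multiples of the array's 75th percentile, linear axes that differ between panels) of every spot without an outlier flag for miR-451, miR-144 and miR-486 on the 4 arrays. Circles and triangles are the 2 probes of a miRNA, solid bars its mean where it was called detected and dotted bars where it was not; the mutant ZT2 array is the highest for all 3, and the bars of miR-451 run from 2.49 to 5.76.

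At ZT2, the comparison of mutant with WT asks whether these miRNAs differed with the *Clock* mutation early in the light phase. miR-451 was 1.79-fold higher in the mutant, a log2 ratio of 0.84 (spot SD 0.058), and this was the highest ratio of the 160 miRNAs detected on both arrays, whose median was -0.065. miR-144 was 1.30-fold higher (log2 0.37, spot SD 0.14) and ranked 8 from the top. With quantile normalization miR-144 was at 0.53 and miR-451 at 0.51, so the top rank of miR-451 rests on the processing. miR-486 was 1.73-fold higher (log2 0.79) against its own undetected signal in WT, which is a noisy estimate. This bound is therefore nominal and no strict limit, and its direction was fixed by detection on the mutant array alone. Over 11 other settings this bound ran from 0.17 with normexp, under 1.5-fold, to 1.34 with the total gene signal. Of 194 miRNAs with a ratio or a bound, 4 were at least 1.5-fold higher in the mutant (2.06%). Of these 4, 2 were miR-451 and, through its bound alone, miR-486. The remaining 2, which were named after their values were seen, were miR-139-5p and miR-100. With 1 array per condition no test was possible. The differences of miR-451 and miR-144 are larger than the spread of spots but have no replicate check. This is not said of miR-486, whose spot SD was 0.63 in WT and 0.44 in the mutant. The ratio of miR-451 ran from 0.51 with quantile normalization to 1.65 in the authors' table, and was past 1.5-fold in 14 of 15 other settings. Among these, the detection and floor settings could not change it, and the single probes are parts of the same mean.

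At ZT14, the same comparison asks about the early dark phase. The log2 ratio was -0.21 for miR-451 (spot SD 0.057) and -0.17 for miR-144 (spot SD 0.29), against a median of -0.031 over 123 miRNAs. Neither direction held: without scaling the ratios were 0.45 and 0.49, and with spike-in scaling 0.61 and 0.65. miR-486 was detected on neither array and has no ratio. A change of at least 1.5-fold in either direction was seen for 34 of 157 miRNAs (21.7%) and for 0 of the 3 members.

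The mutant to WT log2 ratio was thus lower at ZT14 than at ZT2 by 1.05 for miR-451, a double difference of -1.05 (spot SD 0.081), and the value for miR-144 was -0.54 (spot SD 0.32). The median over 123 miRNAs was -0.057, and miR-451 and miR-144 were 8th and 13th from the lowest. The size rests on the scaling: miR-451 gave between -1.19 and -0.18 over 13 other settings, all below 0, while miR-144 gave 0.21 without scaling and 0.33 with spike-in scaling. The detection and floor settings could not change the value of miR-451. The double difference was not tested, as all 4 arrays are used up by it.

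In WT liver, the comparison of ZT14 with ZT2 asks for a change from light to dark phase. miR-451 had a log2 ratio of -0.16 (spot SD 0.063), close to the median of -0.12 over 137 miRNAs, and the ratio was 0.14 with the 75th percentile taken over all mouse miRNAs and 0.065 with median scaling. miR-144 was 1.87-fold lower at ZT14, at -0.90 on the log2 scale (spot SD 0.26), which made it 6th lowest of 137. miR-486 was detected at neither time. Here 41 of 194 miRNAs were at least 1.5-fold lower at ZT14 (21.1%), and 1 of them was a member, miR-144. With normexp background correction and an offset of 50 the ratio of miR-144 was 0.018, and only 4 of its 20 spots at ZT14 were well above background.

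In the mutant, miR-451 and miR-144 were lower at ZT14 than at ZT2. miR-451 was 2.31-fold lower (log2 -1.21, spot SD 0.051), the 8th lowest of 140 miRNAs with a median of -0.16. miR-144 was 2.72-fold lower (log2 -1.45, spot SD 0.19), the 7th lowest. miR-486 had a nominal log2 bound of -1.22 (2.33-fold lower). Its direction was fixed, because only the ZT2 array detected it. The bound was -0.70 with the negative control mean as floor and -0.10 with normexp, which is under 1.5-fold. The 27 of 163 miRNAs at least 1.5-fold lower (16.6%) included miR-451, miR-144 and, through its bound alone, miR-486. For miR-451 every one of 14 other settings gave a ratio past 1.5-fold, from -1.23 to -0.62. Among these, the detection and floor settings could not change it, and the single probes are parts of the same mean. For miR-144 the ratios ran from -1.53 to -0.53. The 4 comparisons share arrays: the mutant ZT2 array enters both the rise at ZT2 and the fall over time, so these are not separate observations.

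**Figure D2:**
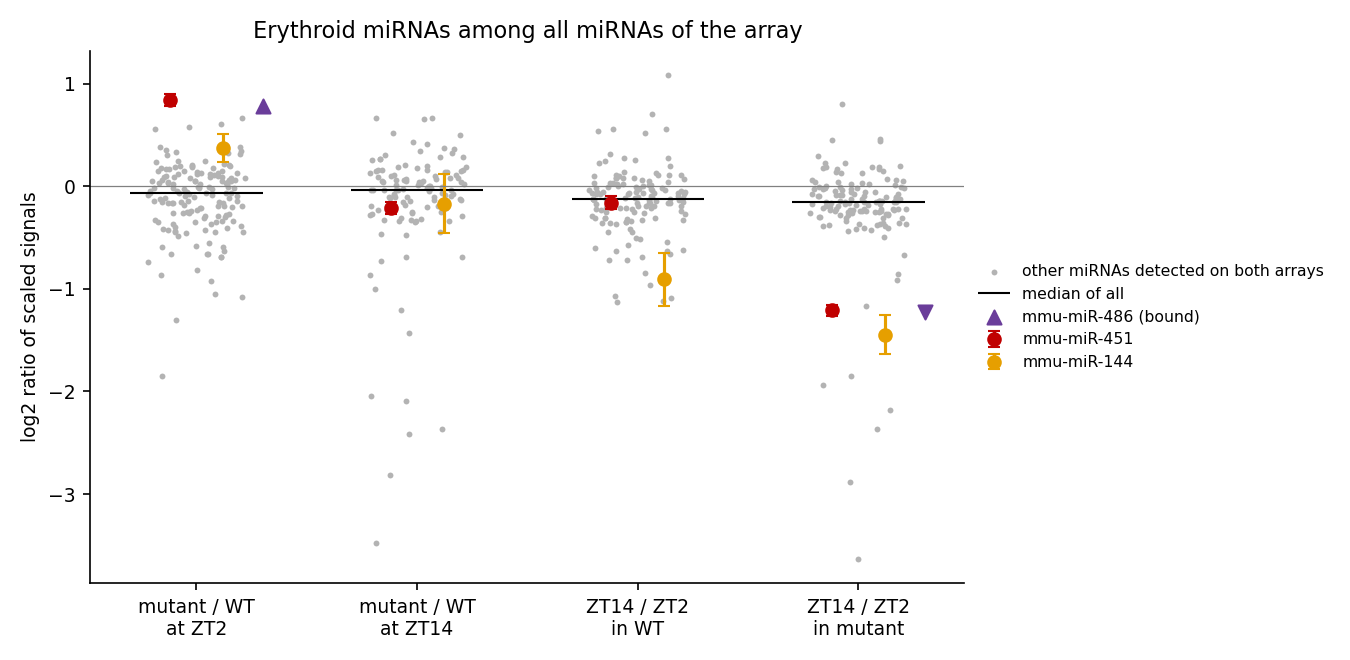
log2 ratios of scaled signals in the 4 comparisons for miR-451 and miR-144 (points, error bars are spot SDs). Triangles are the nominal bounds of miR-486, upward for a rise and downward for a fall. All other miRNAs detected on both arrays are grey, with the median of all as a black line. miR-451 is the highest point at ZT2 at 0.84 and lies at -0.21 at ZT14. For ZT14 over ZT2 in the mutant, miR-451 and miR-144 lie far below the median of -0.16, as does the bound of miR-486.

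The 2 probes gave like ratios for miR-451 and miR-144 but not for miR-486. For miR-451 the dimmer and the brighter probe gave 0.83 and 0.85 for mutant to WT at ZT2, -0.17 and -0.23 at ZT14, and -1.18 and -1.23 for ZT14 to ZT2 in the mutant. For miR-144 they gave 0.40 and 0.36, then -0.16 and -0.18, then -1.44 and -1.45. The probes of miR-486, near background, gave 0.65 and 1.14 for genotype at ZT2, 0.37 and -0.55 for time in WT, and -0.83 and -2.72 for time in the mutant. The probes share the array and the RNA, so they add no replicate.

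Although they come from 1 transcript, miR-451 and miR-144 did not have the same ratios. The change of miR-451 minus that of miR-144 was 0.47 for genotype at ZT2, -0.039 for genotype at ZT14, 0.75 for time in WT and 0.24 for time in the mutant. Scaling by 1 factor per array leaves these differences as they are, but quantile normalization and normexp do not. With quantile normalization the difference at ZT2 was -0.024, and with normexp those for time were -0.22 in WT and -0.64 in the mutant. The normexp offset of 50 is above the ZT14 signals of miR-144, 20.4 units in WT and 28.6 in the mutant. It is far below those of miR-451, 979 and 1336 units. The spot SD of the miR-144 ratios, 0.14 to 0.29, is the larger of the errors, and no replicate is at hand to test the differences.

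Genotype and time could be tested only over all 4 arrays, with genotype and time point in 1 additive limma fit of the 123 miRNAs, which leaves 1 residual degree of freedom. That residual is the double difference of each miRNA. The SEs and p-values take it, shared in part across miRNAs, as the error and do not measure spread between mice. For genotype, miR-451 had an effect of 0.32 (SE 0.29, limma adjusted p = 0.725) and miR-144 of 0.10 (SE 0.18, limma adjusted p = 0.820). For time, miR-451 had an effect of -0.68 (SE 0.29, limma adjusted p = 0.525) and miR-144 of -1.17 (SE 0.18, limma unadjusted p = 0.00348, the 2nd smallest of 123, adjusted p = 0.195). With time point alone in the fit, the time effect of miR-451 was -0.26 without the mutant ZT2 array and -1.10 without the WT ZT2 array, and with normexp that of miR-144 was -0.26. After Benjamini-Hochberg adjustment limma called 0 of 123 miRNAs for genotype (0%) and 0 for time (0%), against 10 and 12 at an unadjusted p under 0.05. For time, some of the other settings did call miR-144 and miR-451, so this outcome rests on the setting. For genotype none called either. Some of the other settings leave 1 array in a group, so only the range of effects over the other settings is given. The time effect ran from -1.46 to -0.26 for miR-144 and from -1.10 to -0.26 for miR-451. The genotype effect ran from -0.62 to 0.83 for miR-144 and from -0.29 to 0.92 for miR-451.

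Blood content of the pools was described with lists of other miRNAs. Of the 12 other miRNAs abundant in red blood cells that the array holds, 11 were detected on at least 1 array and 10 on all 4. miR-191 was on none. At ZT2 9 of these 10 were higher in the mutant, with a median log2 ratio over the 10 of 0.20 against -0.065 over all miRNAs, and none of them changed by 1.5-fold. miR-210, induced by hypoxia, was detected in WT at ZT2 only, at a low scaled signal of 0.0285. Its nominal bound was 4.37-fold above the undetected signal in the mutant (0.0065), which lay under the negative control mean of that array. The highest were miR-92a at 0.34 and miR-25 at 0.32, and miR-16, which red cells hold in plenty, was at 0.25. In the mutant 10 of 10 were lower at ZT14, with a median of -0.26 against -0.16 over all miRNAs. At ZT14 the median for genotype was 0.038 and for time in WT -0.076. The summed scaled signal of the list at ZT2 was 8.22 for WT and 9.22 for the mutant. At ZT14 it was 7.58 and 7.86. The mutant ZT2 array was the highest for this list, but it was also the highest for lists of other liver cells. The summed scaled signal of the hepatocyte markers was 111 for WT and 125 for the mutant at ZT2, and 99.0 and 111 at ZT14. That of the endothelial markers was 3.91 and 4.25, then 3.72 and 3.61. These red cell miRNAs are made in many liver cells as well.

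Against hepatocyte miRNAs the picture of miR-451 held. The 4 hepatocyte markers miR-122, miR-192, miR-194 and miR-148a, all detected on every array, had median log2 ratios of 0.13 and -0.018 for genotype at ZT2 and ZT14, and of -0.14 and -0.20 for time in WT and mutant. Less these medians, miR-451 changed by 0.71, -0.19, -0.019 and -1.01 in that order, and miR-144 by 0.24, -0.15, -0.76 and -1.25. miR-23a moved little, with log2 ratios of -0.043, 0.039, -0.057 and 0.025. Less miR-23a, the change of miR-451 was 0.89, -0.25, -0.10 and -1.23, and that of miR-144 was 0.42, -0.21, -0.85 and -1.47.

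For genotype at ZT2, leukocyte miRNAs did not follow the red cell miRNAs. Of 8 markers, 6 were detected on at least 1 array and 4 on all, while miR-150 and miR-155 were on none. Their summed scaled signal was 1.56 in WT at ZT2, 1.004 in the mutant at ZT2, 0.841 in WT at ZT14 and 0.900 in the mutant at ZT14. The highest array was thus WT at ZT2, where miR-451 was lower than in the mutant. The marker miR-142-3p, made in cells of all blood lineages, had 0.780, 0.496, 0.368 and 0.419, and the myeloid miR-223 had 0.346, 0.257, 0.243 and 0.238. At ZT2 5 of the 6 were at least 1.5-fold lower in the mutant, 2 of them as bounds. Of all 194 miRNAs 34 were (17.5%), and 0 of the 3 erythroid miRNAs. For time in WT, the 4 leukocyte markers on all arrays had a median log2 ratio of -0.72. There miR-144 was at -0.90, miR-451 at -0.16 and the median of the other red cell miRNAs at -0.076. For time in the mutant, the leukocyte median was -0.13, while miR-144 was at -1.45 and miR-451 at -1.21. The part of white cells in the results for miR-144 and miR-451 was not tested.

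The 2 strands of the endothelial and platelet miR-126 had median ratios of 0.074, -0.14, -0.087 and -0.30 in the 4 comparisons. For miR-486, muscle is the other known source. The muscle miRNAs miR-1, miR-133a and miR-133b were detected in WT at ZT2 only, and miR-206 and miR-499 on no array. Their summed scaled signal was 0.309 in WT at ZT2 and 0.00197 in the mutant at ZT2. miR-486 was called detected on the mutant ZT2 array alone, with 0 of its 20 spots well above background. The source of its signal was not tested.

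Of 6 miRNAs known to fall as red cells mature, 3 were detected. miR-221, which restrains erythroid growth through the receptor Kit, had log2 ratios of 0.58 and 0.66 for genotype at ZT2 and ZT14, and of -0.16 and -0.077 for time in WT and mutant. miR-223 and miR-146a, which are on the leukocyte list too, were at -0.43 and -0.66 for genotype at ZT2, and miR-222, miR-150 and miR-155 were on no array.

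**Figure D3:**
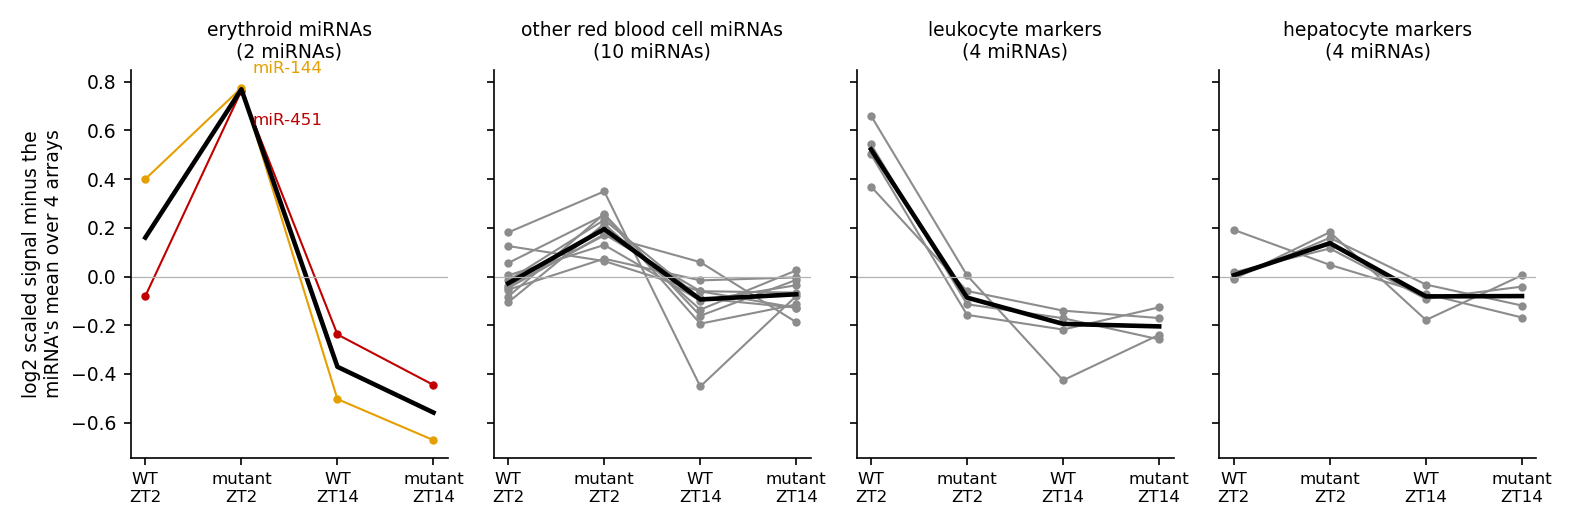
log2 scaled signal of each miRNA minus its own mean over the 4 arrays, for miR-451 (red) and miR-144 (orange) and for the members of 3 lists detected on all 4 arrays (grey lines), with the median as a thick black line. miR-451 and miR-144 peak in the mutant at ZT2, at 0.76 and 0.77, as 9 of the 10 other red blood cell miRNAs do with smaller values. The hepatocyte markers miR-122, miR-192 and miR-194 peak there too, while miR-148a and the leukocyte markers peak in WT at ZT2.

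The pattern over the 4 arrays was compared with all others by the root mean square difference of the centred log2 profiles. The profile of miR-451 was -0.08, 0.76, -0.24 and -0.45 in the order WT ZT2, mutant ZT2, WT ZT14 and mutant ZT14, and that of miR-144 was 0.40, 0.77, -0.50 and -0.67. Of 122 other miRNAs, those most like miR-451 were miR-720 (0.28), miR-144 (0.30), miR-19b (0.30), miR-93 (0.31) and miR-29b (0.32), against a median difference of 0.43. Those most like miR-144 were miR-19a (0.28), miR-451 (0.30), miR-212 (0.30), miR-720 (0.31) and miR-19b (0.36), with a median of 0.56. Each of the pair was thus 2nd nearest to the other. The likeness rests on 4 arrays and is a description.

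**Figure D4:**
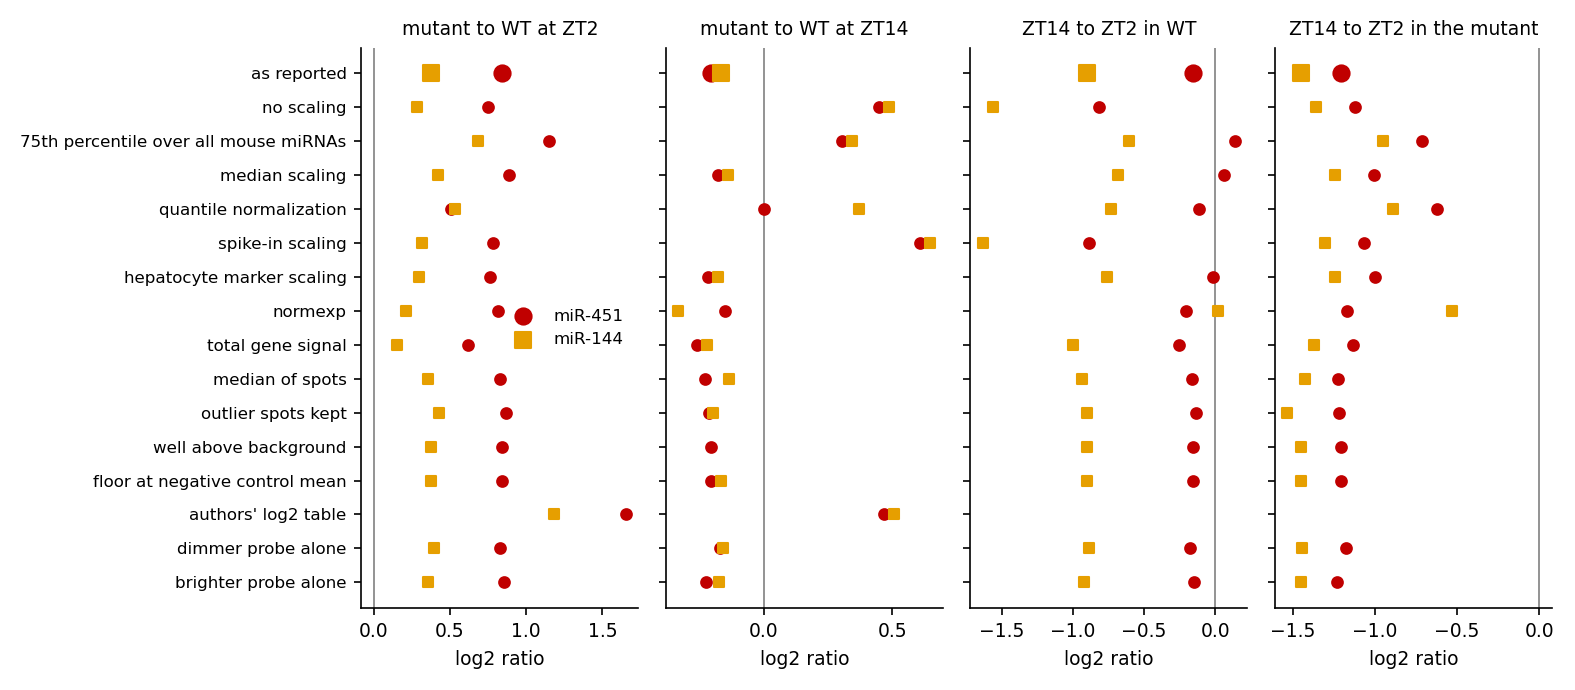
log2 ratios of miR-451 (red circles) and miR-144 (orange squares) in the 4 comparisons under each processing setting, with the values as reported in the top line and 0 as a vertical line. At ZT2 all lie above 0 and in the mutant over time all lie below it, while for mutant to WT at ZT14 the ratios run from -0.26 to 0.61 for miR-451.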

How the data were processed

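The authors deposited the output of Agilent Feature Extraction 10.7.1.1 (per the file headers), which gives each spot's background-subtracted linear intensity, outlier and background flags and a detection call per miRNA, with no scaling between arrays. A table of log2 values, 1 for each miRNA and array, was deposited too and used as an alternative within a time point.

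Here, intensities of spots without outlier flags (3.23% to 3.51% of spots were flagged) were averaged per probe and then per miRNA, scaled to the 75th percentile of 123 miRNAs that every array detected, and log2-transformed. Where only 1 array of a pair detected a miRNA, its ratio is a bound, its signal against the higher of its own signal and the lowest detected signal on the other array, 1.99 to 3.02 units. Such lowest signals were under the negative control means. A bound is therefore nominal and no strict limit, and its direction follows from which array detected the miRNA. The number of arrays limits the precision. Spot SDs of both arrays were added in quadrature. limma 3.58.1 in R 4.3.3 was tested on simulated data of the 123 miRNAs, and called 30 of 30 miRNAs changed by 1.5 (log2, SD 0.15) and 0 unchanged. Whether limma calls effects as small as the genotype effects of miR-451 (0.32, SE 0.29) and miR-144 (0.10, SE 0.18) was not tested. The same holds for effects the size of the time effects of miR-451 (-0.68, SE 0.29) and miR-144 (-1.17, SE 0.18). Calling at an SD above 0.15, or with an SD that differs between miRNAs, was not tested either. Folds were computed with RNAfold (ViennaRNA 2.7.2), other steps with Python 3.11.15, numpy 2.4.6, pandas 2.3.3 and matplotlib 3.10.9. Alternatives were other scalings, background corrections, summaries, detection calls and floors, and for limma other designs and each array left out. The named miRNAs are the members, the marker lists and the 5 nearest profiles of each member detected on all arrays. Members and lists were chosen with earlier results of these data known.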

Additional observations from a re-analysis of the deposited data

Results flagged for a closer look

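The mutant to WT log2 ratio of miR-451 was 0.84 at ZT2 and -0.21 at ZT14 (spot SDs 0.058 and 0.057), a difference of -1.05. That of miR-144 was 0.37 at ZT2 and -0.17 at ZT14 (spot SDs 0.14 and 0.29), a difference of -0.54. They are given because the ratios at the 2 times had opposite signs. With 1 array per condition, the difference between time points was not tested, and the sign at ZT14 turned under 4 other settings for miR-451 and 5 for miR-144.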

How the results depend on the processing

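The rise of miR-451 at ZT2 and the falls of miR-451 and miR-144 in the mutant kept their direction under every setting run, and the ratios at ZT14 did not; the causes were not tested. At ZT2, the log2 ratio of miR-451 was 0.75 without scaling, 1.15 when all mouse miRNAs set the 75th percentile, 0.51 with quantile normalization, 0.78 with spike-in scaling, 0.77 with hepatocyte marker scaling, 0.62 with the total gene signal and 1.65 in the authors' table. That of miR-144 was 0.68 with all mouse miRNAs, 0.53 with quantile normalization, 0.21 with normexp, 0.15 with the total gene signal and 1.18 in the authors' table. At ZT14, the ratio turned to 0.45 for miR-451 and 0.49 for miR-144 without scaling, to 0.30 and 0.34 with all mouse miRNAs, to 0.61 and 0.65 with spike-in scaling and to 0.47 and 0.50 in the authors' table, and was 0 and 0.37 with quantile normalization. For ZT14 to ZT2 in WT, miR-451 was at -0.82 without scaling, 0.14 with all mouse miRNAs, 0.065 with median scaling, -0.89 with spike-in scaling, -0.016 with hepatocyte markers and -0.25 with the total gene signal. There miR-144 was at -1.56 without scaling, -0.61 with all mouse miRNAs, -1.63 with spike-in scaling and 0.018 with normexp. In the mutant, miR-451 was at -1.12 without scaling, -0.71 with all mouse miRNAs, -1.002 with median scaling, -0.62 with quantile normalization, -1.06 with spike-in scaling, -1.001 with hepatocyte markers and -1.13 with the total gene signal, and miR-144 at -0.95 with all mouse miRNAs, -1.24 with median scaling, -0.89 with quantile normalization, -1.24 with hepatocyte markers and -0.53 with normexp. The double difference of miR-144 turned to 0.21 without scaling and 0.33 with spike-in scaling.

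limma called 6 miRNAs for genotype and 3 for time with normexp, and 5 for time without scaling, against 0 in both as reported. With each array left out in turn, it called 0 to 7 for genotype (genotype alone, 7 without the mutant ZT2 array) and 0 to 13 for time (time point alone, 13 without the WT ZT14 array and 1 without the mutant ZT14 array). The genotype effect of miR-451 then ran from -0.29 to 0.92 and that of miR-144 from -0.62 to 0.83 (-0.35 without the WT ZT14 array), and the latter was -0.060 with normexp. With each array left out, the time effect ran from -1.10 to -0.26 for miR-451 and from -1.36 to -0.99 for miR-144. No paired analysis was possible because the labels give no replicate numbers and every condition is a lone array. The count of miRNAs at least 1.5-fold higher at ZT2 was 4 as reported and 1 to 106 over the alternatives. It was 34 and 16 to 126 for either direction at ZT14, 41 and 2 to 168 for lower in WT, and 27 and 10 to 31 for lower in the mutant. At 2-fold the counts were 0 (0 to 17), 21 (6 to 48), 13 (0 to 75) and 22 (5 to 26).

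The single-probe ratios and the fits with time point alone were chosen after seeing the data. The authors' table was not used across time points, because its columns are centred differently (medians of -7.51 and -6.59 at ZT2 and 0 at ZT14). With detection taken from spots well above background, miR-486 was detected on no array and miR-144 not in WT at ZT14. miR-144 then has no genotype ratio at ZT14, and its ratio of -0.90 for time in WT is a bound. Low signal over background thus limits both.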
